A study of Mus musculus with 36 samples.

Results

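Open chromatin was described at the loci of 7 genes that set B-lineage identity: Ebf1, Pax5, the E proteins Tcf3, Tcf4 and Tcf12, and their inhibitors Id2 and Id3. The measured regions were DNase I hypersensitive sites (DHS), stretches of chromatin that the nuclease DNase I cuts readily because they are not covered by nucleosomes. A DHS was taken as a member where it overlapped a GENCODE vM21 gene body of one of the 7 genes extended by 20 kb on each side, which gave 79 of the 52788 DHS in the table. Tcf12 held 23 of them, Tcf4 19, Ebf1 15, Pax5 7, Tcf3 7, Id3 6 and Id2 2. The overlap rule itself uses no measured value, but the 7 genes were chosen with earlier results of these data known.

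The cells were B3, a mouse pre-B cell line, transduced with a mouse stem cell virus (MSCV) retroviral vector. Ikaros cells carried HA-Ikaros-ERt2-IRES-GFP, in which wild-type Ikaros is fused to an oestrogen receptor hormone-binding domain that keeps it out of the nucleus until 4-hydroxytamoxifen (4-OHT) is given, and control cells carried the empty vector ERt2-IRES-GFP. Each line was collected at 6 time points, 0, 2, 6, 12, 18 and 24 h after 4-OHT at 0.5 µM, with 3 replicates per group, so that 36 libraries fell into 12 groups. Both lines received the drug, both were sorted populations of GFP-positive cells rather than clones, and Ikaros came from the viral promoter in addition to the endogenous gene. According to the methods of the study the 0 h cells got no drug and were collected separately from the time courses. The labels, however, name the drug for every sample and give the 0 h libraries the same batch labels as later times. Separate collection, where it applied, and time therefore cannot be told apart in a comparison with 0 h.

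Ebf1 and Pax5 are the transcription factors that specify B-cell fate and then hold it: Ebf1 opens B-lineage chromatin and activates Pax5, and Pax5 activates B-cell genes while silencing those of other lineages. E proteins are basic helix-loop-helix (HLH) factors that bind E-boxes, short sites of the form CANNTG, as homodimers or heterodimers, and they act upstream of Ebf1 in lymphoid progenitors. Id proteins have the HLH dimerisation domain but no DNA-binding domain, so that an E protein bound to an Id protein is kept off DNA. Ikaros is a zinc finger factor needed for lymphoid development, and in pre-B cells its activity goes with cell cycle exit and progression to the next stage.

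Values were log2 of the normalised read density per DHS, corrected for DHS length by the authors. Levels were set side by side between DHS of unlike width, and what part width had in them was not tested. The median over all DHS lay between 3.90 and 4.11 in every library. The number of reads behind each value is unknown, since the table holds no counts, and no counting interval could be given. A lower value in such bulk samples can come from fewer cells with an open site or from a less open site in each cell, and these cannot be told apart. The identity of the cells was checked through DHS within 1000 bp of annotated transcription start sites. Such promoter DHS were listed for 9 B-lineage marker genes, at a median level of 5.20 (3.51 at Cd22 to 5.99 at Ebf1). The highest of these, Ebf1 and Pax5 (5.78), are themselves among the genes described here. Promoter DHS were listed for 3 of 8 T-lineage genes (Gata3 4.53, Tcf7 3.92 and Lck 4.24). Of 7 myeloid genes 1 had one (Lyz2, 3.29), of 5 erythroid genes 1 (Klf1, 4.58) and of 2 muscle genes neither. The B-lineage genes Cd22 and Rag1 (3.91) thus lay below the listed T-lineage and erythroid genes.

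Windows of 300 bp at 4 DHS carry the results below, and they are printed as the plus strand of mm10. They are the Ebf1 intron 7 DHS, which was the member called higher in Ikaros cells from 12 h on, the Pax5 promoter DHS and the intron 1 DHS of Pax5 that were called for a change of the line difference, and a second Pax5 intron 1 DHS that holds the palindrome bound by Ebf1. Capitals mark the E-box letters CANNTG in the first 3 windows and the Ebf1 palindrome, TCCC and GGGA with 2 free bases between them, in the last.
Ebf1 intron 7, chr11:44881345-44881644: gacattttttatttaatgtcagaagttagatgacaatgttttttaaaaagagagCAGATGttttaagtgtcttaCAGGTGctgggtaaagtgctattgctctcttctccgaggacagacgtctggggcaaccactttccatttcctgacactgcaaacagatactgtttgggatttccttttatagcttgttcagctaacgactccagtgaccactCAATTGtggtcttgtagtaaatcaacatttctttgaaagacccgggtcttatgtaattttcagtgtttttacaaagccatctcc
Pax5 promoter, chr4:44710618-44710917: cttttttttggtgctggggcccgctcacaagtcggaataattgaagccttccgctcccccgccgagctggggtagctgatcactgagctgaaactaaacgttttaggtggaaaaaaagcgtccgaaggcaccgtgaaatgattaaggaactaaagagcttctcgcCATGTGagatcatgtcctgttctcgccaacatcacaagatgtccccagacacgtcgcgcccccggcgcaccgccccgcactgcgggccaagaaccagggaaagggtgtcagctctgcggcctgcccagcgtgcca
Pax5 intron 1, chr4:44706005-44706304: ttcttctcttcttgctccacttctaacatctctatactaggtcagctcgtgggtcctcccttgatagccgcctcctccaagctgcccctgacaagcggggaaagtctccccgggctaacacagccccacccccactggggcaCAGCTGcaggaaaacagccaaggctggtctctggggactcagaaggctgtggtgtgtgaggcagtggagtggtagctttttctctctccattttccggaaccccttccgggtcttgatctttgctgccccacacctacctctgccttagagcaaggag
Pax5 intron 1, palindrome, chr4:44705240-44705539: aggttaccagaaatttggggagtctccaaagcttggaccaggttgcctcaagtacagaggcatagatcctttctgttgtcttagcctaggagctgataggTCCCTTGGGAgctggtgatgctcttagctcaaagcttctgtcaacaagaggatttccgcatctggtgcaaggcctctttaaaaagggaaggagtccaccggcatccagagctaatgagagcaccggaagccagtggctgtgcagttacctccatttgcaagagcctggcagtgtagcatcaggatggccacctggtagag
The Ebf1 window held 3 E-boxes and the first 2 Pax5 windows 1 each. Over all members, searched on both strands in windows of 300 bp about the DHS centre, 67 of 79 windows (84.8%) held CANNTG against 79.3% of all DHS windows. The E protein forms CAGCTG and CACCTG, which are included in CANNTG, were each found in 24.1% of member windows, against 19.7% and 21.8% of all. The Ebf1 palindrome was found in 5 member windows (6.33%, against 2.96% of all), 1 each at Ebf1, Pax5, Tcf3, Tcf4 and Id3. The Ikaros core TGGGAA was in 26.6% of member windows and 24.7% of all. No CANNTG was found in the promoter windows of Ebf1 and Id3 or in that of the main Tcf12 promoter. The windows of the first Tcf4 promoter and of the Tcf4 promoter in intron 4 also held none. Those of the internal Tcf12 promoters held 2 and 3.

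Ebf1 lies at chr11:44617317-45008091 on the plus strand, and 11 of its 15 DHS were intronic. Many of its DHS were highly accessible, with a median level of 5.11 against 3.95 for all DHS. Of the 15, 8 lay above the 90th percentile of all DHS (5.03), where 10 in 100 would lie by construction, and 3 lay below the median of all DHS. The highest was in the last exon, exon 16 (chr11:45008030-45008551), with a mean over 36 libraries of 6.56 and the 99.96 percentile. Next came a DHS in intron 10 at 6.22, the promoter DHS (chr11:44616968-44617510) at 5.99, a second intron 10 DHS at 5.89 and an intron 8 DHS at 5.84.

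**Figure D1:**
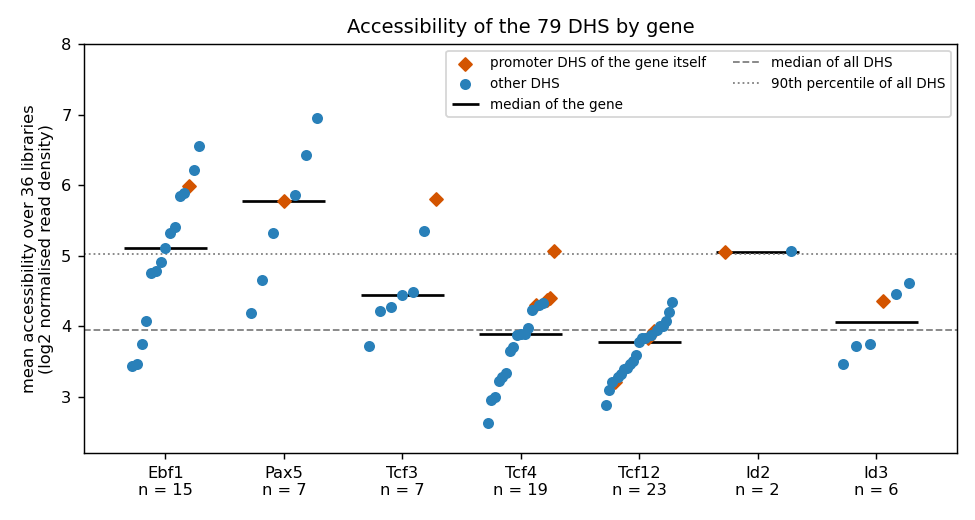
Mean log2 normalised read density (y axis) of each of the 79 member DHS over 36 libraries, by gene (x axis). Each point is 1 DHS, orange diamonds are promoter DHS of the gene itself, short bars are gene medians, the dashed line is the median of all DHS (3.95) and the dotted line their 90th percentile (5.03). Ebf1 and Pax5 have 8 of 15 and 5 of 7 DHS above the dotted line, whereas none of the 23 Tcf12 DHS and none of the 6 Id3 DHS reaches it.

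Pax5 lies at chr4:44524757-44710487 on the minus strand. Only 7 DHS fell in its extended body, but they had the highest median of the 7 genes, 5.78, and 5 of them lay above the 90th percentile. Their median width was 186 bp, against 500 bp for all DHS, 503 bp at Ebf1 and 156 bp at Tcf3. A DHS in intron 1, 4.33 kb into the gene (chr4:44706069-44706239), was the most accessible member, with a mean of 6.95 and the 99.98 percentile of all DHS. The intron 1 DHS with the palindrome printed above (chr4:44705296-44705482) had a mean of 6.43, and a further site within intron 1 (chr4:44704309-44704817), which overlaps an exon of the gene 5730488B01Rik, had 5.86. The promoter DHS, just upstream of the annotated start (chr4:44710639-44710895), had 5.78. The 2 upstream DHS, at −6.49 and −18.7 kb, had 5.33 and 4.65.

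**Figure D2:**
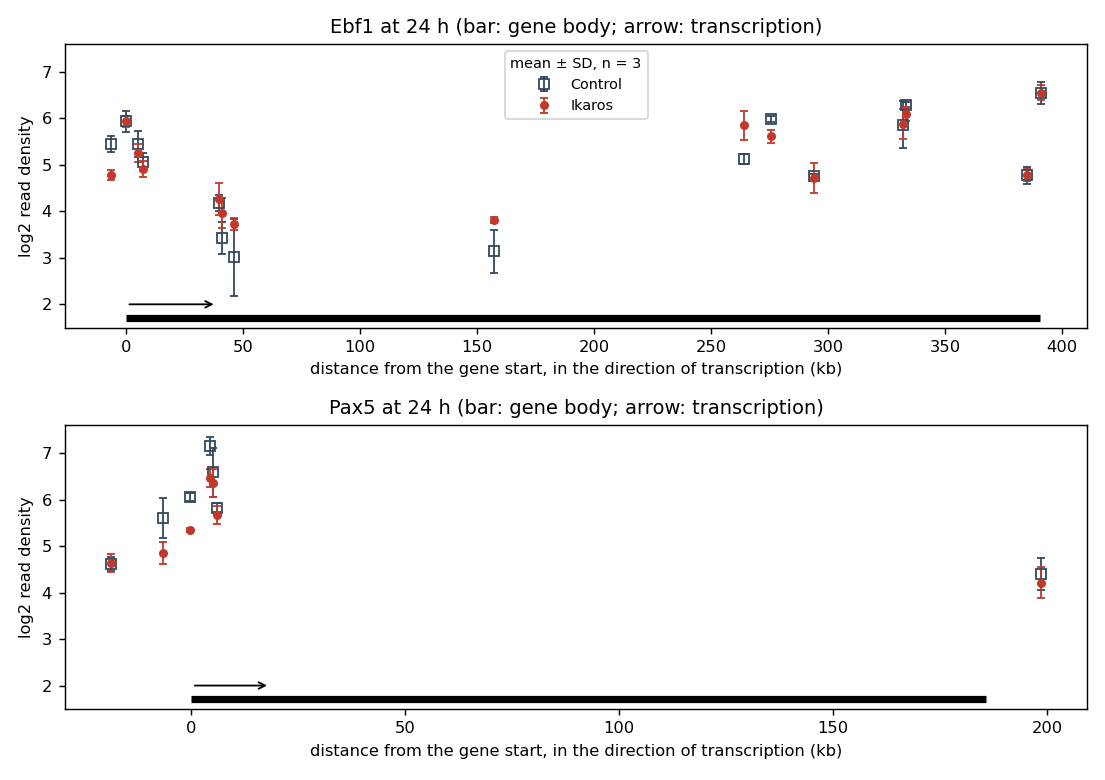
Mean log2 normalised read density at 24 h (y axis, ± SD, n = 3) of the DHS at Ebf1 and Pax5 against the distance of the DHS centre from the gene start in kb, in the direction of transcription (x axis), with open squares for control and red circles for Ikaros cells and a bar for the gene body. Accessible DHS spread over the whole length of Ebf1, up to 391 kb from the start, whereas at Pax5 the highest 5 lie within 7 kb of the start.

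The 3 E protein genes differed among themselves. Tcf3 (chr10:80409514-80433647, minus strand), the E2A gene, had a promoter DHS (chr10:80433598-80434321) with a mean of 5.81, and the other 6 DHS of its window lay between 3.72 and 5.34, where the highest is the promoter of the neighbouring gene Uqcr11. Tcf4 (chr18:69343356-69689079, plus strand) had a median of 3.90 over 19 DHS. Its highest was the promoter DHS at chr18:69344163-69344774 with 5.07, and it had 3 further promoter DHS at internal start sites with 4.30 to 4.41. Tcf12 (chr9:71842688-72111871, minus strand), the gene of HEB, had the most DHS and the lowest median, 3.77. Its main promoter DHS (chr9:72111618-72112155) was at 3.83, the 42.7 percentile of all DHS, and was GC-rich, with 73.9% G or C. Over the 18 control libraries that promoter ranged from 2.42 to 4.05 with a median of 3.60, and over the 18 Ikaros libraries from 3.74 to 4.67 with a median of 4.11.

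Both Id genes are short and had few DHS. Id2 (chr12:25093799-25097140, minus strand), the main E protein inhibitor of innate lymphoid cells, had a promoter DHS at 5.05 and a downstream DHS at 5.07. Id3 (chr4:136143497-136145755, plus strand), which is induced by antigen receptor signals, had a promoter DHS at 4.36, and its highest DHS, 16.8 kb from the start, had 4.61. The last 2 DHS of the Id3 window lie nearest the start of another coding gene, E2f2.

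In order of median level the genes ran Pax5 5.78, Ebf1 5.11, Id2 5.06, Tcf3 4.45, Id3 4.06, Tcf4 3.90 and Tcf12 3.77. At all genes but Id2, whose 2 DHS had nearly the same level, the DHS of a gene ranged wider than the step to the next gene in this order (3.44 to 6.56 at Ebf1, 4.19 to 6.95 at Pax5, 2.63 to 5.07 at Tcf4, 2.89 to 4.35 at Tcf12). By class, 16 members were promoter DHS (20.3%, against 25.9% of all DHS), 44 intronic (55.7% against 35.4%), 15 intergenic (19.0% against 32.9%) and 4 exonic. Of the 16 promoter DHS, 12 were promoters of a member gene, and the other 4 were at start sites of Uqcr11, Gm12158 and A430027C01Rik. The share of intronic sites is set in part by the rule, which takes DHS in and near gene bodies.

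The first comparison asked whether the lines differed before induction. At 0 h 5 of 79 members (6.33%) differed between Ikaros and control cells at an adjusted p below 0.05 by limma, against 12.9% of all DHS, and all 5 were higher in Ikaros cells, as were 7.81% of all DHS. They were the main Tcf12 promoter, 2 Tcf4 promoters, the Pax5 intron 1 site over 5730488B01Rik and an intergenic DHS downstream of Id3. None belonged to Ebf1, Tcf3 or Id2. After quantile normalization 7 members passed, 4 higher and 3 lower in Ikaros cells. The lower ones were the Pax5 intron 1 DHS with the palindrome (−0.76) and 2 Ebf1 DHS, that in intron 7 (−0.39) and one in intron 10 (chr11:44950315-44950831, −0.34), while the Pax5 site over 5730488B01Rik and the first Tcf4 promoter no longer passed. The values of the groups did not overlap at 12 members (15.2%, against 23.6% of all DHS).

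At the Tcf12 promoter the control libraries (replicates 4, 5 and 6) had 3.14, 3.85 and 2.42 at 0 h and the Ikaros libraries 4.04, 4.67 and 4.49. All Ikaros values lay above all control values, and the control values were spread widely, with replicate 6 the lowest. The difference was 1.26 (SE 0.26, limma adjusted p = 0.00258), or 2.40-fold, and 0.89, 0.82 and 2.07 within the 3 batches. Without the third batch (replicate 6 of every group) it was 0.86 and no longer passed (adjusted p = 0.116), while the call was kept without any single library.

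The internal Tcf4 promoter at chr18:69593110-69593747, which starts a shorter transcript within intron 9 of the longest one, had 4.14, 4.02 and 4.03 in control and 4.50, 5.24 and 4.80 in Ikaros cells at 0 h. The groups were separate, and the difference was 0.78 (SE 0.158, adjusted p = 0.0022). The call was lost without the second batch (0.56, adjusted p = 0.0823) and without the third (0.79, adjusted p = 0.0724), but kept without any single library and with the trends on level, width and GC removed (0.74, adjusted p = 0.0123). At the first Tcf4 promoter the control values were 4.62, 4.97 and 4.38 and the Ikaros values 5.46, 4.80 and 5.78. These overlapped, and the difference of 0.69 (SE 0.201, adjusted p = 0.0237) was −0.17 within the second batch. It no longer passed without control 0 h replicate 4 (adjusted p = 0.0638), control replicate 6 (0.55, adjusted p = 0.143), Ikaros replicate 4 (adjusted p = 0.0784) or Ikaros replicate 6 (0.47, adjusted p = 0.146).

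The DHS 4.49 kb downstream of the Id3 start (chr4:136147738-136148238) had 3.25, 3.27 and 2.72 in control and 4.78, 3.56 and 4.32 in Ikaros cells at 0 h. The ranges were separate by a small gap, and the difference was 1.14 (SE 0.307, adjusted p = 0.0146). It was lost without control 0 h replicate 6 (0.96, adjusted p = 0.096) or Ikaros 0 h replicate 4 (0.86, adjusted p = 0.0956). The Pax5 intron 1 site over 5730488B01Rik had 5.84, 5.89 and 5.02 in control and 6.46, 6.15 and 6.30 in Ikaros cells, again with no overlap. Its difference of 0.72 (SE 0.205, adjusted p = 0.0208) fell to 0.44 without control replicate 6 (adjusted p = 0.205), and was lost without Ikaros replicate 4 (0.64, adjusted p = 0.079).

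GC content moved with the difference at 0 h. The 5 called members held 52.4% to 73.9% G or C, against a median of 46.8% for all members and 50% for all DHS. Of the 16 member promoters 14 had a value above 0, as had 10508 of all 13657 promoter DHS. The median difference of the member promoters was 0.29, and that of all 13657 promoter DHS was 0.34, whereas the median was −0.03 over the 63 members away from promoters. Across the 79 members Pearson's r between GC and the 0 h difference was 0.31, and across all DHS it was 0.44, as a description of sites that share their libraries. With trends on level, width and GC removed the Tcf12 difference was 0.36, that of Id3 0.46, that of the first Tcf4 promoter 0.51 and that of the Pax5 site −0.01, and none of these 4 passed. What part GC content had in the 0 h differences beyond this was not tested.

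**Figure D3:**
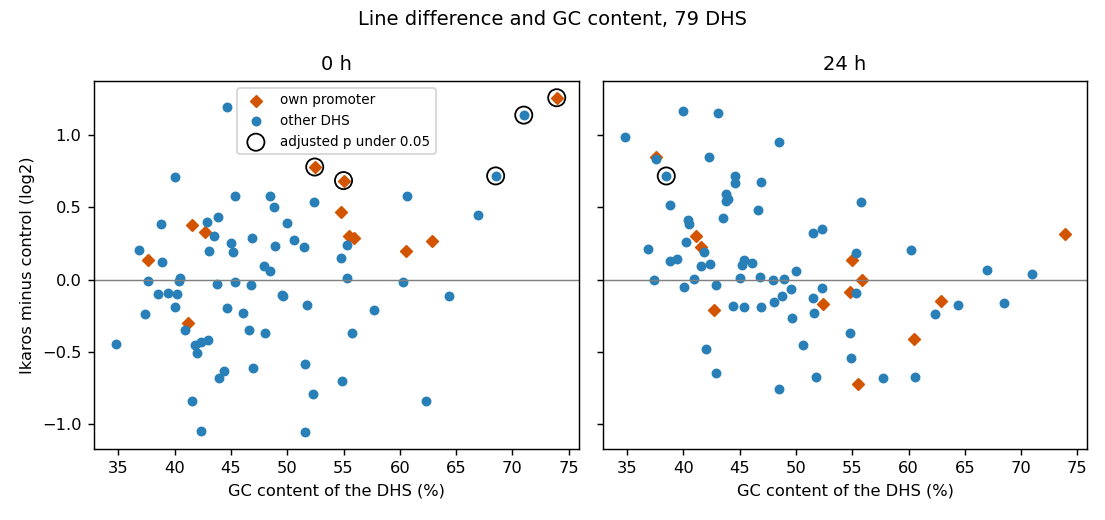
Difference Ikaros minus control in log2 normalised read density (y axis) at 0 h and at 24 h against the percentage of G or C in the DHS (x axis), 1 point for each of the 79 member DHS, with orange diamonds for promoters of the member genes and rings for an adjusted p below 0.05. Members rich in G or C tend to lie above 0 at 0 h (r = 0.31) and below 0 at 24 h (r = −0.41).

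At 2 h no member passed (0 of 79 by limma, against 0.195% of all DHS), and 6 had an unadjusted p below 0.05, against 10.0% of all DHS. At 6 h none passed either (0.578% of all DHS), with 13 at an unadjusted p below 0.05 against 13.8%. The nearest at 6 h was the Tcf12 promoter, with 3.56, 3.02 and 3.33 in control and 4.17, 4.13 and 4.40 in Ikaros cells. The groups were separate there, by 0.93 on average, but the adjusted p was 0.0909.

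At 12, 18 and 24 h 1 member passed, and it was the same DHS each time: the one in intron 7 of Ebf1 (chr11:44881238-44881750), 264 kb from the gene start. It was higher in Ikaros cells. The shares of all DHS called at these times were 1.31%, 0.699% and 1.33%, so that 1 of 79 (1.27%) is near the background at 12 and 24 h. Groups that did not overlap were seen at 9 members at 2 h (13.6% of all DHS) and 17 at 6 h (22.0%), and later at 19 (22.7%), 21 (23.2%) and 24 members (25.5%). The last are 30.4% of the members. The intron 7 DHS had 38.5% G or C and a mean level of 5.40.

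The control libraries of the Ebf1 intron 7 DHS had 5.22, 5.27 and 5.35 before induction, 5.13, 5.24 and 5.15 after 12 h and 5.17, 5.01 and 5.21 after 24 h. The Ikaros libraries had 5.13, 5.21 and 5.22 before induction, then 5.75, 5.64 and 5.40 after 2 h and 5.57, 5.66 and 5.57 after 6 h. After 12 h they had 5.72, 5.80 and 5.94, after 18 h 5.78, 5.81 and 5.55, and after 24 h 6.17, 5.82 and 5.56. At 0 h the Ikaros values lay just below the control values (adjusted p = 0.691), at 2 h the lines overlapped narrowly, and at 6, 12, 18 and 24 h the Ikaros values were all above, while the 18 control libraries stayed between 4.82 and 5.42 throughout.

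The difference at Ebf1 intron 7 was −0.10 before induction (−0.39 and called, adjusted p = 0.0442, after quantile normalization), 0.44 after 2 h (adjusted p = 0.214) and 0.33 after 6 h (adjusted p = 0.287). It was 0.65 after 12 h (adjusted p = 0.0212), 0.63 after 18 h (adjusted p = 0.0273) and 0.72 after 24 h (adjusted p = 0.00985, limma). The last was 1.65-fold, with a 95% interval of 1.35 to 2.01. Within the 3 batches the 24 h difference was 1.00, 0.81 and 0.35, that at 12 h 0.59, 0.56 and 0.79 and that at 18 h 0.96, 0.48 and 0.45, all above 0.

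Single libraries decided whether the Ebf1 intron 7 DHS was called, and at each of the 3 times it was lost without any 1 of the replicate numbers. At 24 h it no longer passed without Ikaros 24 h replicate 4 (0.56, adjusted p = 0.105). At 12 h it was lost without Ikaros replicate 4, 5 or 6 (adjusted p = 0.0577, 0.069 and 0.121, differences 0.70, 0.66 and 0.59). At 18 h it was lost without control replicate 4 or 6 (adjusted p = 0.153 and 0.0687) or Ikaros replicate 4, 5 or 6 (adjusted p = 0.138, 0.142 and 0.0518), with differences of 0.50 to 0.71. With trends on level, width and GC removed it was 0.44, 0.75 and 0.56 at 12, 18 and 24 h (adjusted p = 0.345, 0.0555 and 0.168), and with the 6 libraries of the contrast fitted alone the adjusted p was 0.128, 0.112 and 0.0612.

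Over time in Ikaros cells alone the same Ebf1 DHS was the 1 member to pass the F-test over the 6 times (adjusted p = 0.0386, against 2.29% of all DHS called). With a replicate block the adjusted p was 0.0589. With trends on level, width and GC removed the call was lost, and the Tcf4 promoter DHS at chr18:69415321-69415988 passed instead (adjusted p = 0.0253). The call was also lost without any 1 replicate of Ikaros 0 h or 12 h, replicate 5 of 2 h, replicate 5 or 6 of 6 h, or replicate 4 or 5 of 18 h or of 24 h, with adjusted p between 0.0501 and 0.222. In control cells 0 of 79 members passed by limma, against 0.148% of all DHS, and 12 had an unadjusted p below 0.05, against 12.6%.

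**Figure D4:**
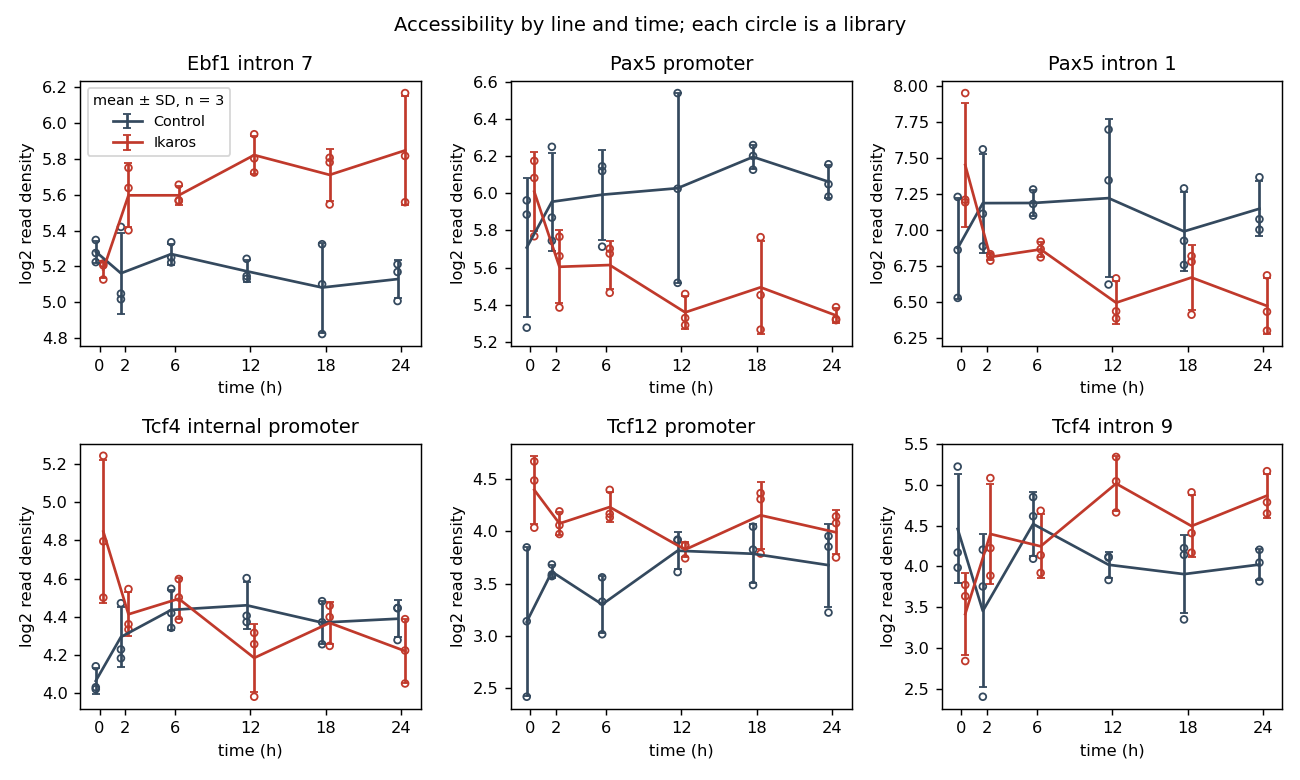
Log2 normalised read density (y axes, which differ between panels) of 6 member DHS against hours after 4-OHT (x axis). Points are single libraries, lines join the means of 3 replicates, and error bars are SD, with dark blue for control and red for Ikaros cells. Ebf1 intron 7 separates upward in Ikaros cells, reaching 5.56 to 6.17 at 24 h against 5.01 to 5.21 in control cells, while the Pax5 promoter separates downward, to 5.32 to 5.39 against 5.98 to 6.16.

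At 24 h the next members by p were a DHS upstream of Ebf1, at −6.26 kb from its start, and the Pax5 promoter, both lower in value in Ikaros cells and neither past the threshold (adjusted p = 0.0567 for each). The upstream Ebf1 DHS (chr11:44610799-44611307) overlaps an exon of the gene Gm37695 and is named here after its values were seen. It had 5.56, 5.55 and 5.24 in control and 4.82, 4.65 and 4.85 in Ikaros cells. These did not overlap, and they differed by −0.68. The Pax5 promoter had 5.98, 6.05 and 6.16 in control and 5.32, 5.32 and 5.39 in Ikaros cells, and the gap between the groups was wider than either group. Its difference over the 6 times in order was 0.30, −0.35, −0.38, −0.67, −0.70 and −0.72, and for the last the 95% interval was −1.12 to −0.32. When each group was given its own spread 7 members passed at 24 h. Beside Ebf1 intron 7 these were the Pax5 promoter (adjusted p = 0.00863), the upstream Ebf1 DHS (0.0129), the most accessible Pax5 intron 1 DHS (0.022), the upstream Pax5 DHS at −6.49 kb (0.0288) and 2 Tcf12 intron 3 DHS (0.0222 and 0.0267). The Pax5 promoter was also the 1 member to pass at 24 h with the 6 libraries of the contrast fitted alone (adjusted p = 0.0373).

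Pax5 DHS in general had lower values in Ikaros cells after induction. The median difference over its 7 DHS was −0.38 at 6 h with 0 of 7 above 0, and then −0.24, −0.26 and −0.23 with 1 of 7 above 0 each time, against medians of 0.0047 to 0.0555 over all DHS. None of the 7 passed at these times, and at 24 h 3 of them had no overlap between the groups (25.5% of all DHS), all lower in Ikaros cells. Quantile normalization turned the 18 h median to 0.08. Among all 79 members the 24 h difference was lower where the mean level was higher (r = −0.53). Pax5 had the highest median level, 5.78, and what part level had in its lower values was not tested. The upstream Pax5 DHS at −6.49 kb (chr4:44716915-44717045), also named after its values were seen, differed by −0.76 at 24 h (adjusted p = 0.113), and the most accessible intron 1 DHS by −0.67 (adjusted p = 0.122).

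Tcf12 was the gene with the most DHS of higher value in Ikaros cells. From 12 h on its median difference was 0.26 (17 of 23 above 0), 0.36 (20 of 23) and 0.31 (19 of 23), and at 24 h the groups were separate at 7 DHS with Ikaros higher and 1 with Ikaros lower, where 25.5% of all DHS were separate in either direction. None of the 23 passed. The intron 3 DHS at chr9:72088792-72089292, 22.8 kb from the start and named after its values were seen, had 2.37, 2.83 and 2.70 in control and 3.52, 3.36 and 3.52 in Ikaros cells at 24 h. The groups were separate and differed by 0.83, with an adjusted p of 0.108. With trends on level, width and GC removed the Tcf12 median at 24 h was −0.01 and 11 of 23 lay above 0, and at 12 h it was −0.12. Tcf12 DHS were low in level and in GC (median 43.8%), and among all 79 members the difference at 24 h correlated with mean level at r = −0.53 and with GC at r = −0.41 (−0.36 with GC across all DHS).

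**Figure D5:**
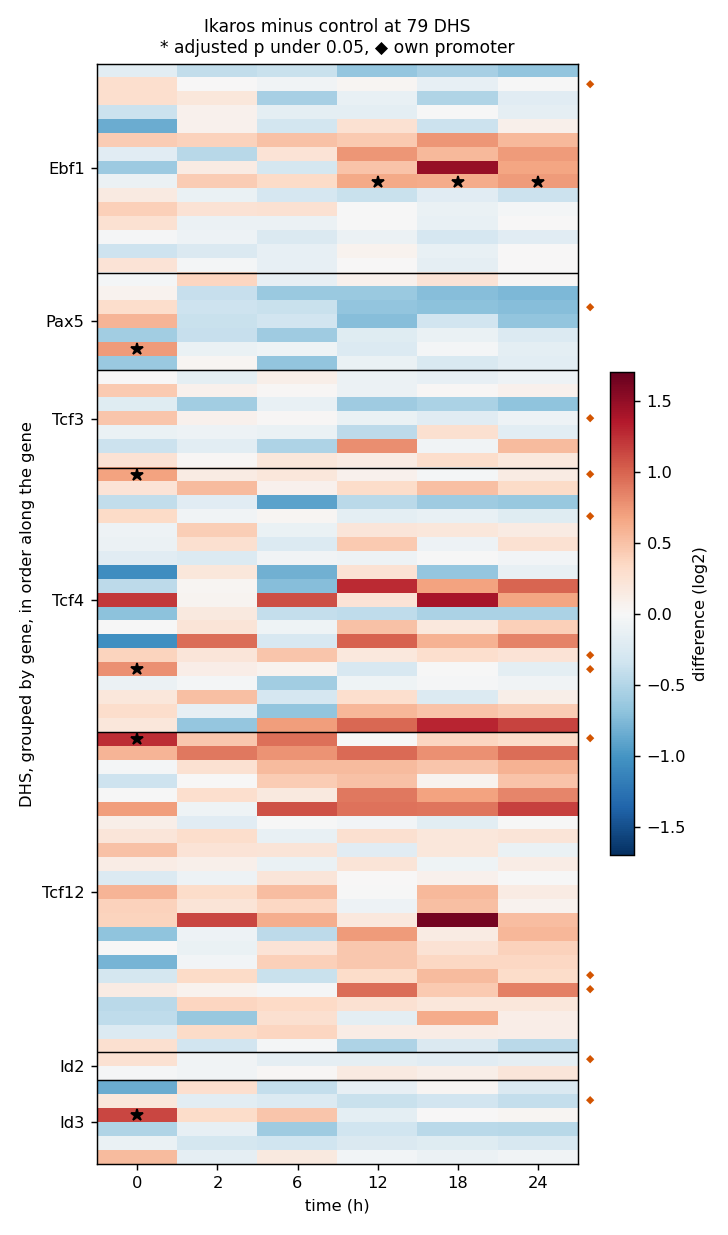
Difference Ikaros minus control in log2 normalised read density (colour scale) for the 79 member DHS (rows, grouped by gene) at 6 times in h (columns). Stars mark an adjusted p below 0.05 by limma and diamonds the promoters of the member genes. Stars are found at 5 DHS at 0 h and at Ebf1 intron 7 at 12, 18 and 24 h, with none at 2 and 6 h.

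No member promoter passed at 24 h (limma, adjusted over all DHS), and the intervals of the difference say how large it could be. The Ebf1 promoter (6.07, 5.68 and 6.07 in control, 6.05, 5.94 and 5.81 in Ikaros cells) differed by −0.01, with a 95% interval of −0.35 to 0.34. The Tcf3 promoter (5.94, 5.71 and 5.82 against 5.89, 5.83 and 5.49) differed by −0.09, with an interval of −0.47 to 0.29. In both the groups overlapped, and the sign was positive after quantile normalization (0.19 and 0.07). The intervals were −0.28 to 0.54 for the first Tcf4 promoter and −0.22 to 0.84 for the main Tcf12 promoter. The interval left out 0 at the Pax5 promoter, as given above (−1.12 to −0.32). It also left out 0 at the internal Tcf12 promoter chr9:71895876-71896376. There the control libraries had 3.02, 2.21 and 2.86 and the Ikaros libraries 3.57, 3.56 and 3.51. The groups were separate and the difference was 0.85 (95% interval 0.14 to 1.57), but it did not pass (adjusted p = 0.232). For the inhibitors they were −0.52 to 0.22 at the Id2 promoter and −0.87 to 0.05 at the Id3 promoter, which had 4.87, 4.40 and 4.25 in control and 4.11, 3.85 and 4.32 in Ikaros cells. The Id3 values overlapped. Over its 6 DHS Id3 had a median difference of −0.25 at 24 h, with 1 of 6 above 0, and none passed.

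The last comparison was the change of the line difference from 0 h to 24 h, which takes the difference present before induction out of the difference at 24 h. It was called at 5 of 79 members (6.33%, against 6.26% of all DHS), with 2 increases (2.85% of all DHS) and 3 decreases (3.40%). The increases were at Ebf1 intron 7 and in intron 9 of Tcf4, and the decreases at the Pax5 promoter, the most accessible Pax5 intron 1 DHS and the internal Tcf4 promoter. No member of Tcf3, Tcf12, Id2 or Id3 passed. Promoter DHS in general had a negative change: the median over all 13657 was −0.42, with 3062 above 0. Over the 16 member promoters the median was −0.48, with 4 above 0. By the methods of the study 0 h cells were collected apart from the rest, so this change and the collection cannot be told apart. Scaling moved the median change of all DHS from 0.12 to −0.04 after quantile normalization.

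At the Pax5 intron 1 DHS (chr4:44706069-44706239) the control libraries went from 7.23, 6.53 and 6.86 at 0 h to 7.0, 7.07 and 7.36 at 24 h, and the Ikaros libraries from 7.95, 7.19 and 7.21 to 6.68, 6.43 and 6.30. Every Ikaros library at 24 h lay below every Ikaros library at 0 h, while the control ranges overlapped. The change of the difference was −1.25 (SE 0.313, adjusted p = 0.0215), and −1.04, −1.30 and −1.41 within the batches. It was −0.77 after quantile normalization (adjusted p = 0.0159). The call was lost without control 24 h replicate 6 (−1.14, adjusted p = 0.0506), Ikaros 0 h replicate 4 (−1.0, adjusted p = 0.0566) or Ikaros 24 h replicate 6 (−1.17, adjusted p = 0.0509), and with the trends removed (−0.72, adjusted p = 0.199).

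At the Pax5 promoter the control libraries went from 5.89, 5.96 and 5.28 to 5.98, 6.05 and 6.16, and the Ikaros libraries from 6.17, 5.77 and 6.08 to 5.32, 5.32 and 5.39. The group means were in opposite order at the 2 times, with overlap of the libraries at 0 h and none at 24 h. The change of the difference was −1.02 (SE 0.276, adjusted p = 0.0292), and −0.95, −0.53 and −1.58 within the batches. It was −0.53 after quantile normalization (adjusted p = 0.148) and −0.74 with the trends removed (adjusted p = 0.132). It passed no longer without control 0 h replicate 6 (−0.81, adjusted p = 0.0961), control 24 h replicate 4 (adjusted p = 0.0501) or 6 (adjusted p = 0.058), Ikaros 0 h replicate 4 (adjusted p = 0.0596) or Ikaros 24 h replicate 4 or 5 (adjusted p = 0.0585 and 0.0584).

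At Ebf1 intron 7 the change was 0.82 (SE 0.2, adjusted p = 0.0195), with 1.10, 0.88 and 0.48 within the batches. It was 1.27 after quantile normalization (adjusted p = 0.000532) and 0.52 with the trends removed (adjusted p = 0.363). The call was lost without Ikaros 24 h replicate 4 (0.66, adjusted p = 0.0614), and when each group had its own spread (adjusted p = 0.0551).

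Tcf4 had 1 call in each direction, both within intron 9. The internal promoter went from 4.14, 4.02 and 4.03 to 4.45, 4.45 and 4.28 in control cells and from 4.50, 5.24 and 4.80 to 4.05, 4.39 and 4.22 in Ikaros cells. The lines were apart at 0 h and overlapped at 24 h, and the change was −0.95 (SE 0.223, adjusted p = 0.0165), with −0.75, −1.28 and −0.82 within the batches. It was −1.05, −0.78 and −1.02 without replicate 4, 5 or 6 of every group, and no longer passed (adjusted p = 0.0554, 0.123 and 0.148). The narrow DHS over 4 kb upstream of it (chr18:69588564-69588694, 130 bp) went from 5.23, 4.17 and 3.98 to 4.05, 3.82 and 4.20 in control and from 3.63, 2.84 and 3.77 to 5.17, 4.79 and 4.65 in Ikaros cells. The lines crossed, with no overlap at either time. The change was 1.89 (SE 0.531, adjusted p = 0.0338), and 2.72, 2.30 and 0.66 within the batches. Without control 0 h replicate 4 (1.51, adjusted p = 0.0867), control 24 h replicate 4 or 5 (adjusted p = 0.0649 and 0.0599), Ikaros 0 h replicate 5 (adjusted p = 0.071) or Ikaros 24 h replicate 4 or 5 (adjusted p = 0.0774 and 0.0596) the call was lost. With the trends removed the changes were −0.78 and 1.30 (adjusted p = 0.0966 and 0.168). Fitted on only the groups of the contrast, none of the 5 changes passed, and without replicate 5 or 6 of every group none of them passed either.

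From 2 h to 24 h no member changed its line difference by limma (0 of 79, and 0% of all DHS), and 2 had an unadjusted p below 0.05, against 2.85% of all DHS. The member with the smallest p was the DHS just downstream of Tcf4 (chr18:69690212-69690342, mean level 2.96), with a change of 1.81. For the interaction of line with all times 0 of 79 passed by limma, against 1.10% of all DHS, with 9 at an unadjusted p below 0.05 against 14.4%. The smallest adjusted p were 0.0629 at the internal Tcf4 promoter, 0.0887 at the narrow Tcf4 DHS of the same intron and 0.0995 at Ebf1 intron 7.

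The spread between replicates sets what these tests could see. Among members the median SD within a group was 0.22 to 0.36 in control cells and 0.17 to 0.33 in Ikaros cells, where the highest was at 0 h. Narrow DHS of low level were the least stable. At the 130 bp Ebf1 intron 6 DHS (chr11:44774557-44774687), for example, which was chosen here after its values were seen, the control libraries at 18 h had 0.98, 3.24 and 1.97.

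Other regulators of the E protein network, HLH factors and their partners, were counted by the same overlap rule: 6 of 7 genes (Id1, Id4, Hes1, Tal1, Lyl1, Lmo2 and Cbfa2t3) had 35 DHS. At 24 h 2 of them passed (1.33% of all DHS), both lower and both at Lyl1, an HLH partner of E proteins, by −0.73 and −0.82, and the list had a median of −0.18. For the change from 0 h to 24 h 4 passed (6.26% of all DHS), all lower, 3 at Lyl1 and 1 at the promoter of Hes1, an HLH repressor (−1.16).

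Among 19 other factors of the early B-lineage network (162 DHS) 7 DHS passed as higher and 1 as lower at 24 h, against 1.33% of all DHS called, with a median of 0.01. Of the 7, 5 were exonic DHS of Ikzf1, the gene of Ikaros. Exonic Ikzf1 DHS were higher at all 6 times, by up to 3.61 at 0 h and 3.63 at 24 h, and since the vector carries the Ikaros coding sequence, reads from vector and gene cannot be told apart. The others at 24 h were in introns of Foxo1 (1.07) and Mef2c (1.71), and the lower one was in an intron of Myb (−0.66).

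Known targets activated by Ebf1, Pax5 or E proteins (15 genes, 73 DHS) had 2 DHS higher at 24 h (1.33% of all DHS were called), in the window of Rag2, a subunit of the recombinase (1.05), and in an intron of Blk, a B-cell kinase (1.34), and a median over the list of −0.13. Among 6 genes repressed by Pax5 or Ebf1 (35 DHS) 1 exonic DHS of Flt3, a cytokine receptor of progenitors, was higher at all 6 times, by 0.75 at 0 h and 1.25 at 24 h, and no other DHS of the list passed at 24 h.

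As a description over 36 libraries, the promoter DHS whose pattern was most like that of each gene were Slc1a4 (Pearson's r = 0.91) and Tldc1 (0.89) for Pax5, Msmo1 (0.84) and Zdhhc5 (0.83) for Ebf1, and Gpbp1 and Fzr1 (both 0.91) for Tcf3. For Id2 they were Nrd1 (0.90) and Arf2 (0.89), and for Tcf12, through its promoter DHS of highest mean at an internal start site, Pcdhb3 (0.75) and Gm43934 (0.70). For Tcf4, through its first promoter, they were Gm9806/Vps13a and Trim28 (both 0.83), and for Id3 Arhgap21/Gm13375 (0.78) and Wdr6 (0.76). The libraries share depth and base-composition effects, and 6 promoter DHS reached an r above 0.9 with Tcf3.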

How the data were processed

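The table deposited by the authors held log2 values of normalised read density for 52788 consensus DHS in 36 libraries. Per the methods of the study, paired reads were trimmed and aligned to mm10 with Bowtie2, peaks were called per replicate with HOMER in a narrow and a broad pass, merged, counted with bedtools, filtered for low counts and normalised by RPKM with TMM, and the ARSyN method then removed unassigned variation. ARSyN models the experimental groups, so the groups are not independent of one another and the spread between replicates does not hold all of the error. The log base is not stated in the table. Read as base 2 and multiplied by DHS length, the values of a library sum to between 369487 and 432755 RPM. Read as base e they sum to between 1575615 and 2338647, above the highest sum that RPM can have, so base 2 was used. Whether DHS starts count from 0 or 1 is not stated and leaves 1 bp open.

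All DHS were annotated with GENCODE vM21. Groups came from the labels. A linear model with 12 group means was fitted to all 36 libraries and 52788 DHS with limma 3.58.1 in R 4.3.3 (eBayes with an intensity trend), with 8 two-sided contrasts and 3 F-tests, Benjamini-Hochberg adjustment over all DHS and a threshold of 0.05. Differences are Ikaros minus control. The fit was tested on simulated data. Tables were summarised with Python 3.11.15, pandas 2.3.3 and numpy 2.4.6. Promoter DHS lay within 1000 bp of an annotated start site, and sequences were read from the GRCm38 genome. Introns are numbered in the longest transcript of a gene. Named DHS were the promoters of member genes, the highest DHS of each gene, up to 3 called DHS per direction and contrast (otherwise the one with the smallest p), and the smallest interaction p of each gene. At 0 h all 5 called DHS were counted among the 61 named results, past this limit. DHS outside this rule are said to be chosen after their values were seen, as were the Pax5 intron 1 DHS with the palindrome, the one over 5730488B01Rik and the DHS given by level alone.

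Replicates 4, 5 and 6 carry the batch labels 11, 12 and 13, so the number pairs libraries. Deviations from the group means correlated at a median r of −0.0103 (−0.328 to 0.342) over 198 same-numbered pairs and 0.00789 over 396 others. Replicates are repeat time courses of the same 2 lines, so p-values measure the spread between cultures of these lines. Alternatives were quantile normalization, trends with level, width and GC removed, a spread per group, the lowest 25% of DHS by level left out, a replicate block, no intensity trend, only the groups of a contrast fitted, and each replicate and each library left out. The members and gene lists were chosen with earlier results of these data known. A further B-lineage marker gene is not reported here.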

Additional observations from a re-analysis of the deposited data

Results flagged for a closer look

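At 5 member DHS the difference between Ikaros and control cells at 24 h was itself different from that at 0 h by a test of the change (limma adjusted p below 0.05), and these are the ones listed in the report. The line difference fell by 1.25 on the log2 scale at the most accessible Pax5 intron 1 DHS, from 0.58 to −0.67. It fell by 1.02 at the Pax5 promoter, from 0.30 to −0.72. At the internal Tcf4 promoter it fell by 0.95, from 0.78 to −0.17. The median change over all 13657 promoter DHS was −0.42. The line difference rose by 0.82 at Ebf1 intron 7, from −0.10 to 0.72, and by 1.89 at the narrow Tcf4 intron 9 DHS, from −1.05 to 0.85. The Ebf1 DHS was the only 1 of the 5 called both at 24 h and for the change, whereas the internal Tcf4 promoter was called at 0 h and not at 24 h, and the other 3 at neither time. By the methods of the study the 0 h cells were collected apart from the time courses, though the labels give them the same batches. The part of that collection in these changes cannot be told apart from the part of time.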

How the results depend on the processing

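Every call at a member depended on some setting. With trends on level, width and GC removed the number of members called was 1 at 0 h, 0 at the 3 late times and 0 for the 0 to 24 h change, and over time in Ikaros cells a Tcf4 promoter DHS passed in place of Ebf1 intron 7. With a spread per group it was 2 at 0 h, then 6, 4 and 7 at 12, 18 and 24 h, 3 for the 0 to 24 h change and 0 over time in Ikaros cells. With no libraries but those compared in the fit it was 0 at 0, 12 and 18 h and for the change, 5 over time in Ikaros cells and 1 at 24 h, the Pax5 promoter in place of Ebf1 intron 7. Quantile normalization gave 7 at 0 h (3 of them lower in Ikaros cells), 4 for the 0 to 24 h change, 1 at 2 h, 1 for the interaction and 2 over time in Ikaros cells. Leaving out the lowest 25% of DHS by level gave 2 over time in Ikaros cells. Without an intensity trend there were 2 at 12 h and 0 over time in Ikaros cells. The replicate block gave 0 over time in Ikaros cells and changed no other call at a named member. The causes of these differences were not tested. The fits of the compared libraries alone had fewer residual degrees of freedom, and what part this had was not tested either. Leaving out 1 replicate or library gave 1 to 7 members at 0 h, 0 to 0 at 2 and 6 h, 0 to 5 after 12 h, 0 to 1 after 18 and 24 h, 0 to 9 for the 0 to 24 h change, 0 to 0 for that from 2 h, 0 to 3 for the interaction, and 0 to 1 over time in Ikaros and in control cells.

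Of 61 named results 17 changed sign under some alternative, and 1 of these was called: the Pax5 intron 1 site over 5730488B01Rik at 0 h (−0.0117 with trends removed, main value 0.72). Quantile normalization turned the Ebf1 promoter to −0.0406 at 0 h, 0.19 at 24 h and 0.23 for the change, the Pax5 promoter to −0.00716 at 0 h and the Tcf3 promoter to 0.0743 at 24 h. With trends removed the Ebf1 promoter had 0.28 at 24 h and 0.20 for the change, the Tcf3 promoter 0.13 at 24 h, the Id2 promoter −0.11 at 0 h, 0.0599 at 24 h and 0.17 for the change, and the internal Tcf12 promoter DHS at chr9:71896498-71896639 0.11 at 0 h, −0.00588 at 24 h and −0.12 for the change, while its neighbour at chr9:71895876-71896376 had −0.0584 for the change. Leaving out 1 replicate or library moved 24 h differences across 0 at the promoters of Ebf1 (−0.141 to 0.123), Tcf3 (−0.193 to 0.0361) and Id2 (−0.286 to 0.0036), at the last exon of Ebf1 (−0.186 to 0.163) and at the internal Tcf4 promoter chr18:69591664-69592191 (−0.0989 to 0.763, and −0.694 to 0.499 for its change). It did so at 0 h for the internal Tcf12 promoters at chr9:71895876-71896376 (−0.445 to 0.543) and chr9:71896498-71896639 (−0.553 to 0.0633).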
